A study of Mus musculus with 6 samples.

Results

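The genes examined here encode enzymes of the tricarboxylic acid (TCA) cycle in the left ventricle (LV) of the mouse heart. The list names 9 genes, *Cs*, *Idh2*, *Idh3a*, *Ogdh*, *Sucla2*, *Suclg1*, *Sdha*, *Fh1*, and *Mdh2*, which were found by gene name in the authors' table of 12629 named genes and joined by identifier to the count table, which holds 56923 genes. All 9 passed the filter on low counts. Expression was measured by mRNA-Seq in LVs perfused with PBS from 3 WT mice and 3 mice carrying 1 mutant *Lztr1* allele, all male and 12 weeks of age. The mutant mice are *Lztr1* R409C/+ mice, a CRISPR/Cas9 knock-in that models Noonan syndrome with a heterozygous missense mutation in every cell of the animal, and the line was backcrossed to C57BL/6J. The sample labels give only wild-type or mutant and heart, and the allele, the sex, and the ventricle come from the study's methods. The labels name no treatment, and each library came from 1 mouse. The labels do not say whether the mice were littermates.

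In the TCA cycle, acetyl-CoA made from fatty acids and pyruvate is oxidized to CO2 in the mitochondrial matrix, and the electrons pass as NADH and FADH2 to the respiratory chain. The heart beats without pause and draws most of its ATP from mitochondrial oxidation, so the mRNAs of these enzymes are abundant in cardiomyocytes. All of the genes are encoded in the nucleus, and their proteins are imported into mitochondria.

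The libraries held between 66130887 and 72641124 counts, and mitochondrially encoded genes took between 13.8% and 45.4% of them. WT replicate 3 had the lowest share and *Lztr1* R409C/+ replicate 1 the highest, whereas the share in the other 4 mice lay between 29.7% and 37.3%. Values are therefore given as CPM, counts scaled to the size of their library, after TMM normalization, which adjusts for such differences in composition. The 8 cardiomyocyte markers examined, *Myh6* among them, were abundant in every library. Of 4 atrial markers, *Myl7* and *Sln* had at most 19 counts in any mouse and the other 2 had higher means in mutant mice, with overlap of their sum. Summed over 6 markers, leukocyte mRNA was 148.2 to 179.8 CPM in WT and 243.7 to 353.6 CPM in *Lztr1* R409C/+ mice, without overlap. *Lztr1* itself was measured at 23.5 ± 1.11 CPM in WT and 25.7 ± 2.03 CPM in *Lztr1* R409C/+ mice (SD, n = 3 per genotype), and counts per gene do not show the substituted base. Of the remaining marker lists, 4 of 4 erythroid genes were higher and 3 of 3 smooth muscle genes lower in mutant mice, fibroblast genes (3 of 4 higher) and endothelial genes (2 of 4 higher) were divided, and adipocyte genes had at most 12 counts. None of these genes passed the threshold in edgeR's quasi-likelihood test, and 5 of them had an unadjusted p under 0.05. These were 2 erythroid genes and 1 fibroblast gene, which were higher, and 2 smooth muscle genes, which were lower. Among all 17212 genes tested, 1486 had such a p in either direction. The sums of the erythroid, smooth muscle, fibroblast, and endothelial markers each overlapped between the genotypes. The smooth muscle sum was mostly *Acta2*, and the other smooth muscle genes, *Tagln* and *Myh11*, were lower without overlap.

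The comparison of the genotypes asks whether expression of the cycle enzymes differed in the LV. Every one of the 9 genes had a lower fitted mean in *Lztr1* R409C/+ than in WT mice, by between 6.73% for *Suclg1* and 23.1% for *Fh1*. None of them passed a false discovery rate of 0.05 in edgeR's quasi-likelihood test, in which 0.0407% of the 17212 genes tested passed (7 genes). The adjusted p-values of the 9 genes, over all genes tested in edgeR, lay between 0.551 and 0.901. DESeq2's Wald test and edgeR's exact test also called 0 of the 9 genes, where they called 0.918% and 0.796% of all genes tested. At an unadjusted p under 0.05, the quasi-likelihood test gave 1 of the 9 genes, *Fh1*, where 2.86% of all genes tested were lower at that level. With 1 mouse left out this count was 2 without WT replicate 3 (*Fh1* and *Ogdh*), 1 without *Lztr1* R409C/+ replicate 2, and 0 in the other 4 fits. The median log2 fold change of the 9 genes was -0.21. Over all genes tested it was 0.01, and 48.6% of them were lower in *Lztr1* R409C/+ mice. Of the 396 genes with a mean log2 CPM at least as high as that of *Suclg1*, the least abundant of the 9, 66.9% were lower and the median log2 fold change was -0.13. This group of abundant genes was formed after the values were seen. In bulk LV, a lower level of an mRNA cannot be told apart from a smaller share of the cells that make it.

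**Figure D1:**
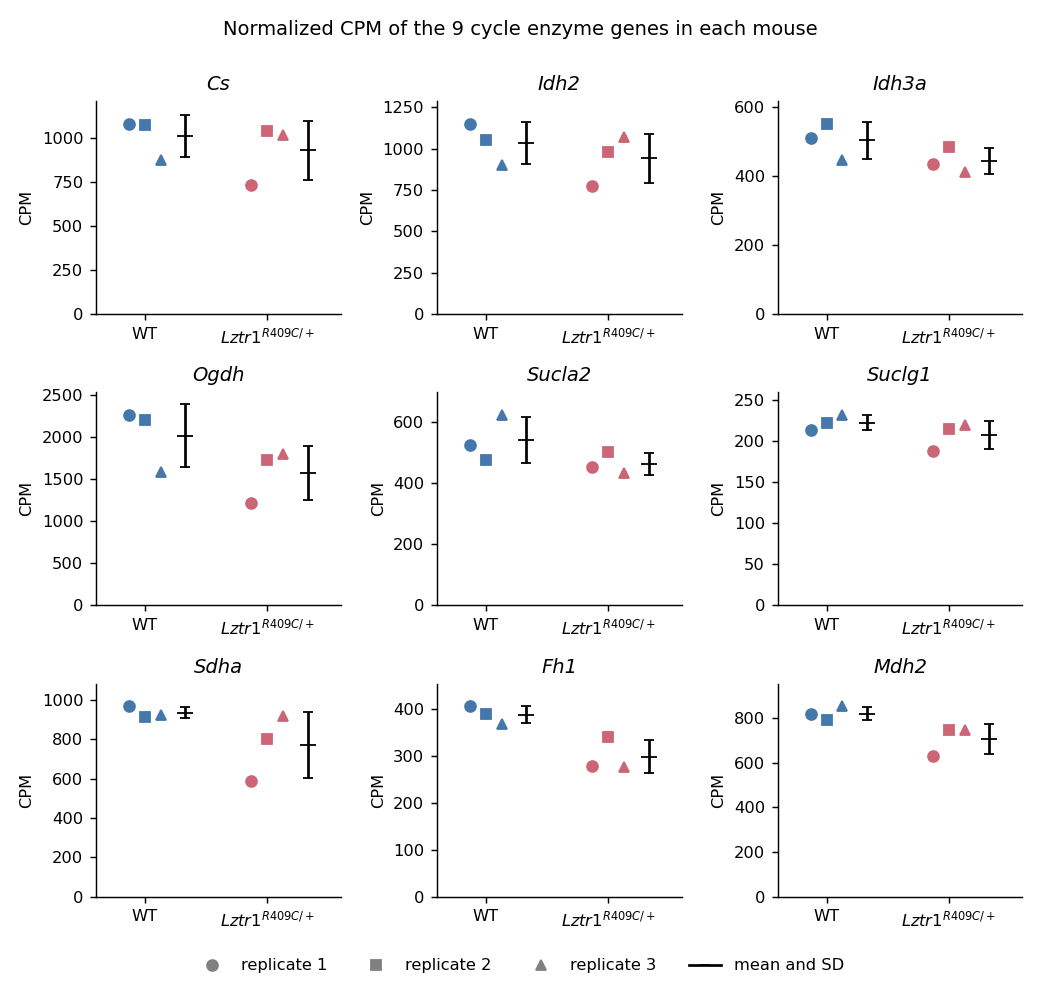
Normalized CPM (y axis, from 0) of each of the 9 genes in 3 WT mice (blue) and 3 *Lztr1* R409C/+ mice (red), with a marker for each replicate and the mean and SD beside them. The groups are apart for *Fh1* and *Mdh2* and overlap for the other 7 genes.

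*Fh1* encodes fumarate hydratase, which adds water to fumarate to form malate. In replicate order, the WT mice had 406.6, 390.6, and 369.6 CPM, and the *Lztr1* R409C/+ mice had 279.7, 340.6, and 277.4 CPM. All mutant mice were below all WT mice, which held for 7.23% of all genes tested and for 19.7% of the 396 abundant genes. The log2 fold change was -0.38 (standard error 0.16, 95% interval -0.72 to -0.03). The unadjusted p of 0.0345 became 0.551 after adjustment over all genes in edgeR's quasi-likelihood test. The two-sided exact permutation test gave p = 0.1, the smallest that 3 mice per genotype allow. *Fh1* (ENSMUSG00000026526.15) lies on chromosome 1 of GRCm39 from 175425290 to 175453205, on the minus strand.

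*Mdh2* encodes the mitochondrial malate dehydrogenase, which oxidizes malate to oxaloacetate and closes the cycle after fumarate hydratase. WT replicates 1, 2, and 3 had 816.4, 792.2, and 852.5 CPM, and *Lztr1* R409C/+ replicates 1, 2, and 3 had 631.1, 745.5, and 747.2 CPM. The groups were again apart, with 747.2 CPM in the highest mutant and 792.2 in the lowest WT mouse (p = 0.1 in the exact permutation test, two-sided). At -0.21 (standard error 0.16, 95% interval -0.57 to 0.14), the log2 fold change was closer to 0 than that of *Fh1*, and the unadjusted p was 0.215 in edgeR's quasi-likelihood test. *Mdh2* (ENSMUSG00000019179.11) lies on chromosome 5 from 135807292 to 135820882, on the plus strand.

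*Fh1* and *Mdh2* were the only genes of the 9 without overlap between the genotypes. This share of 22.2% was near that of the 396 abundant genes, 19.7%, and above that of all genes tested, 7.23%, all counted as lower. The sequence before the start sites of *Fh1* and *Mdh2* is shown, together with that of *Idh3a*, the other gene with an ETS core. The stretches were read from GRCm39, 5′ to 3′ on the strand of the gene, within the 250 bases before the start of the canonical GENCODE transcript. Capitals mark the letters of the ETS core (CCGGAAG, a motif of the ETS factor family that includes GABPA) and of the CCAAT box on either strand.
*Fh1*, chr1:175453206-175453291, minus strand: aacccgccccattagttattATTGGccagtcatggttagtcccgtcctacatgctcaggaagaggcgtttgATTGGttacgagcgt
*Mdh2*, chr5:135807197-135807243, plus strand: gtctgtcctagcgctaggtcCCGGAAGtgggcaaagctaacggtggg
*Idh3a*, chr9:54493461-54493587, plus strand: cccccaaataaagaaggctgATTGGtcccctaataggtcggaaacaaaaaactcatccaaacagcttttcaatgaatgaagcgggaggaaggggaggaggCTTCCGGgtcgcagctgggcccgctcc

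The ETS core was present before 2 of the 9 genes, *Idh3a* and *Mdh2*, and before 6.89% of 21757 protein-coding genes. A CCAAT box, searched after the sequences had been read, was present before 5 of the 9 genes, *Cs*, *Fh1*, *Idh3a*, *Ogdh*, and *Sdha*, and before 36.5% of protein-coding genes. In *Fh1*, both CCAAT boxes lay on the opposite strand, the nearer one 11 to 15 bases before the start. The motif of the estrogen-related receptors (AAGGTCA) and the core of the NRF1 motif (CGCATGCG), factors known for the control of mitochondrial genes, were found on neither strand in the window of any of the 9 genes, against 3.93% and 1.83% of protein-coding genes. In these stretches the ETS core and the CCAAT box share no base.

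The cycle begins with citrate synthase, encoded by *Cs*, which joins acetyl-CoA to oxaloacetate. *Cs* had 1082, 1075, and 872.8 CPM in WT and 733.6, 1038, and 1017 CPM in *Lztr1* R409C/+ replicates 1, 2, and 3. *Lztr1* R409C/+ replicate 1 was the only mutant mouse below the WT mice, and the other mutant mice lay within their range. The log2 fold change was -0.12 (standard error 0.19, 95% interval -0.54 to 0.30), and without *Lztr1* R409C/+ replicate 1 it changed sign, to 0.018. It ranged down to -0.22, without WT replicate 3, when 1 mouse was left out. In GRCm39, *Cs* (ENSMUSG00000005683.9) spans 128172837 to 128198363 on chromosome 10, plus strand.

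Isocitrate is oxidized by separate enzymes. *Idh2* encodes the mitochondrial enzyme that reduces NADP, and *Idh3a* the catalytic subunit of the NAD-dependent enzyme of the cycle. *Idh2* had 1151, 1051, and 898.9 CPM in WT and 774.8, 978.2, and 1068 CPM in *Lztr1* R409C/+ mice, in replicate order. Only *Lztr1* R409C/+ replicate 1 lay below the WT mice, and *Lztr1* R409C/+ replicate 3 was above WT replicates 2 and 3. *Idh3a* had 509.8, 550.9, and 445.8 CPM in WT and 432.7, 483.7, and 412.1 CPM in *Lztr1* R409C/+ mice. Here *Lztr1* R409C/+ replicates 1 and 3 were below the WT mice, and replicate 2 was within their range. The log2 fold change was -0.14 for *Idh2* (standard error 0.19) and -0.18 for *Idh3a* (standard error 0.16). That of *Idh2* was -0.02 without *Lztr1* R409C/+ replicate 1 and -0.05 without WT replicate 1, but -0.24 without *Lztr1* R409C/+ replicate 3 and -0.23 without WT replicate 3. That of *Idh3a* ranged from -0.26 without WT replicate 3 to -0.11 without WT replicate 2. On the log2 scale, the ratio of *Idh2* to *Idh3a* within a mouse was 1.04 ± 0.12 in WT and 1.08 ± 0.27 in *Lztr1* R409C/+ mice (SD, n = 3 per genotype, exact permutation test, two-sided, p = 0.8). The difference of 0.04 changed sign when *Lztr1* R409C/+ replicate 3 (-0.11) or WT replicate 2 (-0.02) was left out. It was 0.16 without *Lztr1* R409C/+ replicate 1 and 0.10 without WT replicate 1. Such a ratio does not depend on the scaling between libraries. *Idh2* (ENSMUSG00000030541.17) spans 79741431 to 79765535 on chromosome 7, minus strand, and *Idh3a* (ENSMUSG00000032279.12) spans 54493575 to 54514730 on chromosome 9, plus strand.

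*Ogdh* encodes the E1 component of the 2-oxoglutarate dehydrogenase complex, which converts 2-oxoglutarate to succinyl-CoA. It had the highest CPM of the 9 genes, with 2263, 2203, and 1582 for the WT mice and 1211, 1725, and 1801 for the *Lztr1* R409C/+ mice, in replicate order. WT replicate 3 fell among the mutant mice, and *Lztr1* R409C/+ replicate 1 was the lowest of all 6. The log2 fold change was -0.35 (standard error 0.22, 95% interval -0.84 to 0.13, unadjusted p = 0.140 in edgeR's quasi-likelihood test). It was -0.50 without WT replicate 3 and -0.20 without *Lztr1* R409C/+ replicate 1. *Ogdh* (ENSMUSG00000020456.18) spans 6241551 to 6309233 on chromosome 11, plus strand.

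Succinyl-CoA ligase makes a nucleoside triphosphate from succinyl-CoA. *Suclg1* encodes the α subunit common to both forms of the enzyme, *Sucla2* the β subunit of the form that makes ATP, and *Suclg2* the β subunit of the form that makes GTP. *Sucla2* had 525.2, 476.4, and 622.7 CPM in WT and 453.3, 501.9, and 432.7 CPM in *Lztr1* R409C/+ replicates 1, 2, and 3. *Lztr1* R409C/+ replicates 1 and 3 were below the WT mice, and replicate 2 was above WT replicate 2. *Suclg1* had 213.1, 222.7, and 231.9 CPM in WT and 188.3, 215.2, and 219.3 CPM in *Lztr1* R409C/+ mice, with 1 mutant mouse below the WT mice. *Suclg2*, which is not among the 9 genes, had 132.0 ± 17.5 CPM in WT and 119.6 ± 9.45 CPM in *Lztr1* R409C/+ mice (SD, n = 3 per genotype). The log2 fold changes were -0.23 for *Sucla2* (standard error 0.17), -0.10 for *Suclg1* (standard error 0.15), and -0.14 for *Suclg2* (standard error 0.16). With 1 mouse left out, *Sucla2* ranged from -0.32 without WT replicate 2 to -0.12 without WT replicate 3. *Suclg1* ranged from -0.14 without *Lztr1* R409C/+ replicate 3 to -0.04 without *Lztr1* R409C/+ replicate 1, and *Suclg2* from -0.25 without WT replicate 3 to -0.07 without WT replicate 1. The log2 ratio of *Sucla2* to *Suclg1* was 1.27 ± 0.17 in WT and 1.16 ± 0.15 in *Lztr1* R409C/+ mice (SD, n = 3 per genotype, two-sided exact permutation test, p = 0.4). The difference of -0.12 was -0.03 without *Lztr1* R409C/+ replicate 3, -0.04 without WT replicate 3, and -0.21 without WT replicate 2. That of *Sucla2* to *Suclg2* was 2.04 ± 0.38 in WT and 1.95 ± 0.17 in *Lztr1* R409C/+ mice (SD, n = 3 per genotype, two-sided exact permutation test, p = 0.8). WT replicate 3 had the highest ratio of *Sucla2* to *Suclg2* of all mice, at 2.47, and the other 5 mice lay between 1.76 and 2.05. The difference of this ratio, -0.08, was 0.13 without WT replicate 3 and 0.01 without *Lztr1* R409C/+ replicate 3. It was -0.21 without WT replicate 2 and -0.18 without WT replicate 1. *Sucla2* (ENSMUSG00000022110.14) spans 73762759 to 73834335 on chromosome 14, plus strand, and *Suclg1* (ENSMUSG00000052738.15) spans 73225365 to 73253894 on chromosome 6, plus strand.

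*Sdha* encodes the flavoprotein of succinate dehydrogenase, which is also complex II of the respiratory chain and oxidizes succinate to fumarate. It had 968.1, 915.5, and 924.0 CPM in WT and 589.7, 804.7, and 918.1 CPM in *Lztr1* R409C/+ replicates 1, 2, and 3. Among WT mice the coefficient of variation was 3.02%, and among mutant mice it was 21.6%. *Lztr1* R409C/+ replicate 3 lay between WT replicates 2 and 3, and the other mutant mice were below them. The log2 fold change was -0.28 (standard error 0.19, 95% interval -0.69 to 0.14), and it was -0.13 without *Lztr1* R409C/+ replicate 1 and -0.42 without *Lztr1* R409C/+ replicate 3. *Sdha* (ENSMUSG00000021577.15) spans 74469359 to 74498436 on chromosome 13, minus strand.

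**Figure D2:**
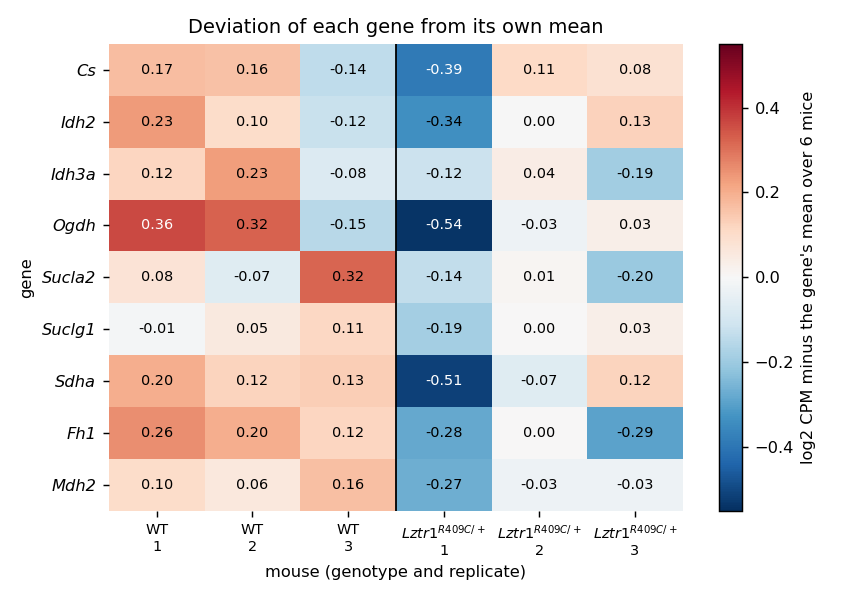
Deviation of each gene's log2 CPM from its own mean over the 6 mice (colour and printed value), with genes in rows and mice in columns. *Lztr1* R409C/+ replicate 1 is below the mean for all 9 genes, with -0.54 for *Ogdh* and -0.51 for *Sdha*, WT replicates 1 and 2 are each above it for 8 genes, and the other 3 mice have mixed signs.

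Averaged over the 9 genes, the deviation of log2 CPM from each gene's mean came in replicate order to 0.17, 0.13, and 0.04 for the WT mice and to -0.31, 0.0048, and -0.04 for the *Lztr1* R409C/+ mice. Every mutant mouse was thus below every WT mouse in this average, but *Lztr1* R409C/+ replicates 2 and 3 were close to WT replicate 3. The summed CPM of the 9 genes, in which *Ogdh* weighs most, overlapped, with 7935, 7678, and 6800 for the WT mice and 5294, 6833, and 6893 for the mutant mice. The lowest value of a gene was in *Lztr1* R409C/+ replicate 1 for 6 of the 9 genes and in *Lztr1* R409C/+ replicate 3 for the other 3, *Idh3a*, *Sucla2*, and *Fh1*. The highest value was in a WT mouse for every gene. How often these patterns held among all genes was not counted, and the 9 genes were measured in the same 6 libraries. Without *Lztr1* R409C/+ replicate 1, 8 of the 9 genes were lower in mutant mice, with a median log2 fold change of -0.14. Without WT replicate 3, all 9 genes were lower, with a median of -0.23. Together the 9 genes took 1.10% to 1.15% of the counts outside mitochondrially encoded genes in WT mice. In *Lztr1* R409C/+ replicates 1, 2, and 3 this share was 0.776%, 1.03%, and 1.07%. As a share of all counts the groups overlapped, with 0.731%, 0.694%, and 0.944% for the WT mice and 0.423%, 0.673%, and 0.755% for the mutant mice. The share of mitochondrially encoded genes was 45.4%, 35.02%, and 29.7% of all counts in the same 3 mice and 36.5%, 37.3%, and 13.8% in WT replicates 1, 2, and 3. The markers of cardiomyocytes, summed over 8 genes, were 36673, 32560, and 31096 CPM in WT and 23585, 28526, and 34727 CPM in *Lztr1* R409C/+ mice. *Lztr1* R409C/+ replicate 1 was the lowest mouse in this sum, as it was in the average of the 9 genes, and 6 of the 8 markers had a lower mean in mutant mice, with a median log2 fold change of -0.26. The order of the sum depended on *Myh6*. Without it the sum of the other 7 markers was 19324, 18398, and 16976 CPM for the WT mice. For the mutant mice it was 17255, 16650, and 18105 CPM, and *Lztr1* R409C/+ replicate 2 was lowest. Gene by gene, *Lztr1* R409C/+ replicate 1 was the lowest mouse for *Myh6*, *Ttn*, *Ryr2*, and *Actn2*. It was not the lowest for *Tnnt2*, *Tnni3*, *Myl2*, and *Pln*. *Pln*, the most abundant of the other 7 markers, was highest in that mouse, at 7060 CPM. All 6 leukocyte markers were higher, with a median log2 fold change of 1.01 and the highest sum in *Lztr1* R409C/+ replicate 1. In edgeR's quasi-likelihood test, 0 of the 6 passed the threshold, but all 6 had an unadjusted p under 0.05, and 5 did not overlap between the genotypes. Among all 17212 genes tested, 993 were higher at that p and 1429 were higher without overlap. The part of mitochondrial RNA and of these cell types in the levels of the 9 genes was not tested.

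The share of each gene in the sum of the 9 was computed within each mouse. *Ogdh* made up 26.8% ± 3.09 of their summed CPM in WT and 24.7% ± 1.68 in *Lztr1* R409C/+ mice (SD, n = 3 per genotype). The shares of *Idh2*, *Cs*, *Sdha*, and *Mdh2* ranged from 11.0% to 13.8% in WT and from 11.2% to 14.8% in *Lztr1* R409C/+ mice, as group means. Each gene was also set against the geometric mean of the 9 in the same mouse. *Fh1* was the gene whose ratio to this mean did not overlap between the genotypes. On the log2 scale, in replicate order, this ratio was -0.82, -0.85, and -0.83 for the WT mice and -0.89, -0.92, and -1.17 for the *Lztr1* R409C/+ mice (p = 0.1 in the exact permutation test, again the smallest possible). The largest part of this difference was in *Lztr1* R409C/+ replicate 3. The ratios of the other 8 genes to the mean overlapped, with differences of the group means between -0.13 for *Ogdh* and 0.12 for *Suclg1* on the log2 scale. The log2 ratio of *Cs* to *Mdh2* also overlapped, with 0.29 ± 0.23 in WT and 0.38 ± 0.14 in *Lztr1* R409C/+ mice (SD, n = 3 per genotype, two-sided exact permutation test, p = 0.5). With 1 mouse left out, the difference of 0.09 ranged from -0.04 without WT replicate 3 to 0.17 without *Lztr1* R409C/+ replicate 1.

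Levels of different genes were compared per kilobase of merged exons, in WT mice. *Ogdh* was highest, at 215.3 ± 40.3 CPM per kilobase, followed by *Cs* at 159.1 ± 18.7 and *Mdh2* at 152.5 ± 5.65 (SD, n = 3). *Cs* overlapped with both of its neighbours in this order. *Idh2*, at 122.0 ± 14.97 CPM per kilobase, and *Sdha*, at 112.6 ± 3.40, came next and overlapped with each other but not with *Mdh2* above them. *Idh3a* and *Sucla2* overlapped at 61.3 ± 6.46 and 57.5 ± 7.91 CPM per kilobase, and *Suclg1* and *Fh1* were lowest at 38.7 ± 1.64 and 38.7 ± 1.85 (SD, n = 3). *Lztr1* R409C/+ mice had the same order of means, from 168.6 ± 34.2 CPM per kilobase for *Ogdh* to 29.7 ± 3.57 for *Fh1* (SD, n = 3). Merged exons contain every annotated isoform and are longer than most transcripts. With the length of the canonical transcript instead, *Idh2* was highest in WT, at 591.3 ± 72.6 CPM per kilobase, *Ogdh* was the fifth at 296.5 ± 55.5, and *Fh1* was again lowest at 73.5 ± 3.51 (SD, n = 3). The places of *Idh3a*, *Sucla2*, *Suclg1*, and *Fh1* were the same by both lengths, and the order of the 5 genes above them depended on the length.

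**Figure D3:**
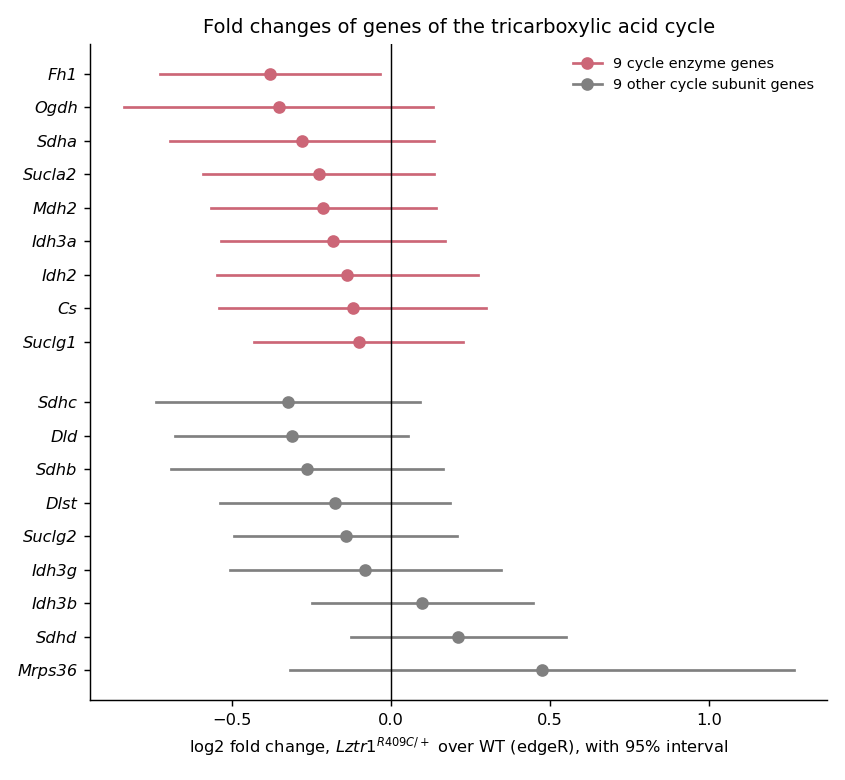
Log2 fold change of *Lztr1* R409C/+ over WT mice (x axis, edgeR) with its 95% interval for the 9 genes (red) and for 9 other genes of subunits of the cycle (grey). All 9 red points are below 0, and 3 of the grey points are above 0. Only the interval of *Fh1*, from -0.72 to -0.03, does not reach 0, without adjustment for the number of genes.

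Further subunits of the cycle were examined as a list of 9 genes, all of which were tested. In this list 6 genes were lower and 3 higher in *Lztr1* R409C/+ mice, 0 passed the threshold in edgeR's quasi-likelihood test, 0 had an unadjusted p under 0.05, and the median log2 fold change was -0.14. The gene with the smallest p among the lower ones was *Dld*, the dihydrolipoamide dehydrogenase shared by the 2-oxoglutarate and pyruvate dehydrogenase complexes. It had 458.2 ± 36.8 CPM in WT and 369.2 ± 56.1 CPM in *Lztr1* R409C/+ mice (SD, n = 3 per genotype), a log2 fold change of -0.31. Among the higher genes it was *Sdhd*, a membrane anchor of succinate dehydrogenase, with 213.3, 199.0, and 212.4 CPM in WT and 221.8, 228.7, and 273.3 CPM in *Lztr1* R409C/+ mice. The groups did not overlap, and the log2 fold change was 0.21 (standard error 0.16, unadjusted p = 0.196 in edgeR's quasi-likelihood test). For *Sdhd* it was 0.08 with an offset for gene length, 0.06 with scaling by library size only, and 0.11 without *Lztr1* R409C/+ replicate 3. *Sdhc*, the other membrane anchor, was named after its values were seen. It had 316.7, 316.3, and 485.8 CPM in WT and 294.1, 305.3, and 294.9 CPM in *Lztr1* R409C/+ mice, without overlap in the opposite direction and with -0.32 (standard error 0.19) as its log2 fold change. Without WT replicate 3, the mouse with the highest *Sdhc*, it was -0.09. The 4 subunits of succinate dehydrogenase thus had 3 values below 0 and 1 above 0, and *Sdhb* had -0.26, which ranged from -0.44 without *Lztr1* R409C/+ replicate 1 to -0.12 without WT replicate 3.

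Pyruvate enters the cycle through the mitochondrial pyruvate carrier and pyruvate dehydrogenase. Of 13 genes of this step and of the kinases and phosphatases that control it, 10 were lower and 3 higher, with a median log2 fold change of -0.18. *Pdp2*, a phosphatase that activates pyruvate dehydrogenase, had 25.9 ± 2.84 CPM in WT and 19.0 ± 4.52 CPM in *Lztr1* R409C/+ mice (SD, n = 3 per genotype), a log2 fold change of -0.45. *Mpc1*, a subunit of the carrier, had 172.3 ± 35.2 and 206.2 ± 64.4 CPM (SD, n = 3 per genotype). Its log2 fold change of 0.26 became -0.032 without *Lztr1* R409C/+ replicate 1. A list of 14 genes held enzymes that refill the cycle, such as *Pcx*, those of the malate-aspartate shuttle, and cytosolic counterparts of cycle enzymes. In this list 13 genes were lower and 1 was higher, with a median log2 fold change of -0.27. *Mmut*, the methylmalonyl-CoA mutase that feeds succinyl-CoA into the cycle, had 117.5, 112.8, and 125.4 CPM in WT and 66.2, 98.4, and 86.4 CPM in *Lztr1* R409C/+ mice. The groups were apart, and the log2 fold change was -0.50 (standard error 0.17). The p of edgeR's quasi-likelihood test, adjusted over all genes, was 0.455. *Acly*, the ATP citrate lyase of the cytosol and the higher gene of the list, had a log2 fold change of 0.02.

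Of 8 genes for the lipoylation and iron-sulfur assembly of cycle enzymes and for the assembly of succinate dehydrogenase, 4 were lower and 4 higher, with a median log2 fold change of -0.0090. The smallest p-values in either direction belonged to *Lipt2*, a lipoyl transferase, and *Nfu1*, an iron-sulfur scaffold, at -0.29 and 0.21 on the log2 scale, with standard errors of 0.24 and 0.20. *Lipt2* was at -0.12 without *Lztr1* R409C/+ replicate 3, and *Nfu1* at 0.02 without WT replicate 3. Among 9 transcriptional regulators of mitochondrial genes, 8 were lower and 1 higher, and the median log2 fold change was -0.24. *Esrrg*, an estrogen-related receptor, had 54.7 ± 7.73 CPM in WT and 44.1 ± 3.84 CPM in *Lztr1* R409C/+ mice (SD, n = 3 per genotype), a log2 fold change of -0.31. *Esrra*, its relative, was higher by 0.06 on the log2 scale. Over the 5 lists, 41 of 53 genes (77.4%) were lower, where 48.6% of all genes tested and 66.9% of the 396 abundant genes were. Many of the 53 genes were less abundant than *Suclg1*, so the 396 genes are not matched to them in level. Of the 53 genes, 0 passed the threshold in edgeR's quasi-likelihood test, and 3 (5.66%) had an unadjusted p under 0.05, all of them lower, where the share lower at that level was 2.86% of all genes tested and 8.84% of the abundant genes. Counted in either direction, this count was 2 to 6 with 1 mouse left out (2 without WT replicate 1 and 6 without *Lztr1* R409C/+ replicate 2), 5 without a filter, and 1 with scaling by library size only. Of all 17212 genes tested, 1486 had an unadjusted p under 0.05 in either direction in the main test. With all mice, the third of the 3 genes beside *Mmut* and *Pdp2* was *Got1*, the cytosolic aspartate aminotransferase of the malate-aspartate shuttle, named after its values were seen, and its log2 fold change was -0.46 (standard error 0.18). In 13 of the 53 genes (24.5%) every mutant mouse was below every WT mouse, where the share was 7.23% among all genes tested and 19.7% among the abundant genes.

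**Figure D4:**
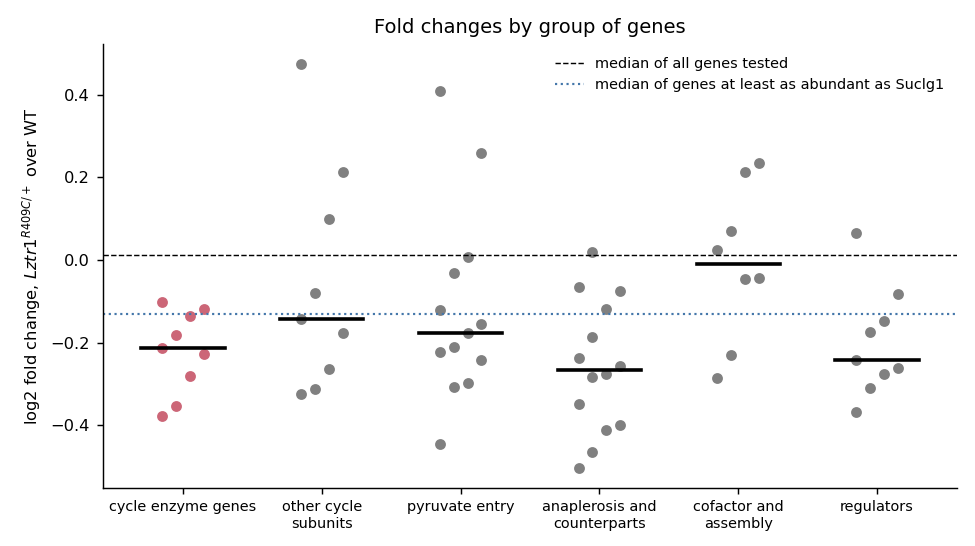
Log2 fold change of *Lztr1* R409C/+ over WT mice (y axis, edgeR) for each gene (points) of the 9 cycle enzyme genes (red) and of 5 lists of related genes (grey), with the median of each list as a bar. Horizontal lines give the median of all genes tested (dashed, 0.01) and of the 396 genes at least as abundant as *Suclg1* (dotted, -0.13), and the median of the 9 genes is -0.21.

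Genes with a pattern over the 6 mice like the average of the 9 were ranked by the root mean square difference of their centred log2 CPM from that average. The 5 closest genes outside the 9 were *Rbm24*, *Aco1*, *Vps35l*, *Bbs9*, and *Zfyve1*, with differences from 0.034 to 0.040 on the log2 scale. *Aco1*, the cytosolic aconitase, was one of the genes of the lists above, with a log2 fold change of -0.26. *Mdh2* was the closest of the 9 genes to their average, with a difference of 0.068, and *Sucla2* and *Ogdh* were the farthest, with 0.175 and 0.169.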

How the data were processed

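According to the submitters' processing notes and the methods, the authors ran Trim Galore, HISAT2 on GRCm39, StringTie, and edgeR and excluded rRNA data. Versions, the annotation release, and the step from StringTie to counts are not given in the sources used here. The table deposited by the authors holds raw counts for each gene and mouse. Depth was 66130887 to 72641124 counts per mouse, and 3 counts corresponded to 0.0317 to 0.0541 CPM, for counting error only. The authors' own comparison table was read for gene names only, and its fold changes and p-values were not used.

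The counts were fitted with edgeR 4.0.16 under R 4.3.3. Genes passing filterByExpr (17212) were normalized with TMM and tested between genotypes with the robust quasi-likelihood test, two-sided, with Benjamini-Hochberg adjustment at 0.05. A 95% interval is the log2 fold change plus and minus the t quantile times its standard error. Per-mouse ratios were compared with an exact permutation test. The steps were tested on simulated data. The quasi-likelihood p-values set the difference between genotypes against the spread between these mice, which was estimated with information shared across genes. Positions and lengths came from GENCODE, matched by identifier without its version, and merged exons hold all isoforms. Whether counting split reads with near-identical copies is not given in the sources used here.

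Genes named are the 9 cycle genes, *Suclg2*, from every list the higher and the lower gene of smallest unadjusted p, and the 5 genes of the most similar pattern. Other names were chosen after their values were seen. A gene of the lists is not reported here and is left out of their counts. The 9 genes and the lists were chosen with earlier results of these data known. Alternatives were other normalizations, DESeq2 1.42.0, edgeR's exact test, other filters, removal of mitochondrially encoded genes, an offset for gene length, a replicate block, and the omission of each mouse. The canonical transcript length, the CCAAT box, the group of abundant genes, the cardiomyocyte sum without *Myh6*, and the median over the 9 genes were added after the data were seen.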

Additional observations from a re-analysis of the deposited data

How the results depend on the processing

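None of the 9 genes passed the 0.05 threshold in any of 17 alternatives, and none of the 53 related genes did. The adjusted p of the 9 genes lay between 0.353 (*Fh1*, DESeq2) and 0.987. All 9 genes were lower in 16 of the alternatives and 8 were lower without *Lztr1* R409C/+ replicate 1, where *Cs* was at 0.0177 (-0.22 to 0.0177 over the 6 fits that each left out 1 mouse). *Fh1* ranged from -0.52 to -0.33 over the alternatives, and its unadjusted p was under 0.05 in the main test and in 9 of the 17. Scaling by library size only moved the median log2 fold change of all genes to -0.14 and that of the 9 genes to -0.37, and it turned *Acly* to -0.0822 and *Esrra* to -0.0965. With 1 mouse left out, *Acly* ranged from -0.0927 to 0.15, *Esrra* from -0.0739 to 0.13, *Mpc1* from -0.0317 to 0.41, *Nfu1* from 0.02 to 0.33, *Lipt2* from -0.46 to -0.12, *Esrrg* from -0.39 to -0.19, and *Pdp2* from -0.63 to -0.29. The number of all genes called, 7, was 21 with library size only (15 higher and 6 lower, against 6 and 1), 20 without a filter, 158 with DESeq2, 137 with edgeR's exact test, and 2 to 4 with 1 mouse left out, and the cause was not tested. The replicate block called 1 gene, and 1 with the gene length offset. Same-numbered mice had correlations of their deviations between -0.057 and 0.022, and differently numbered mice between -0.050 and 0.048. With few mice per genotype, these values cannot decide whether the replicate numbers pair the mice, and the labels do not say. Each of the 9 genes had at least 10434 counts in every mouse.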
